A study of Homo sapiens with 4 samples.

Results

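The SOCS and CISH genes encode a family of 8 cytokine feedback inhibitors, SOCS1 to SOCS7 and CISH, and were described here in human leukaemia cells deprived of glucose. Members were taken by their gene symbol, and each of the 8 matched 1 of the 60609 gene identifiers in the table. CCRF-CEM is an established line of T cell acute lymphoblastic leukaemia, used here in a derivative labelled CCRF-CEM/HA-AMPKa2, which by its name carries an HA-tagged AMPK alpha 2 subunit, in every library. Cells of the No glucose group spent 24 hours in medium without glucose (2 libraries, ONG_9 and ONG_10), and cells of the Ctrl group spent that time in control medium (2 libraries, CTRL_7 and CTRL_8). Total RNA was sequenced, and the comparison asks how transcript levels differed after this metabolic stress. The labels name 1 line and do not say that the libraries came from separate cultures, so p-values measure the spread between these libraries, which may be technical.

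Cytokines bind receptors that lack kinase activity of their own and signal through attached JAK kinases, which phosphorylate STAT transcription factors. STATs then switch on genes that include CISH, SOCS1, SOCS2 and SOCS3, whose proteins dock on the receptor or the kinase through an SH2 domain and damp the signal. The SOCS box at the end of each protein recruits elongin B, elongin C and a cullin to form a ubiquitin ligase. SOCS4 to SOCS7 are less tied to cytokine receptors and are known for acting on receptor tyrosine kinases and insulin signalling. In T cells, SOCS1 and CISH are known as brakes on the response to interferon and to the interleukins that sustain lymphocytes.

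The promoters of SOCS1 and CISH are printed because their upstream sequences hold different motifs. Any part of these motifs in the changes of the 2 genes was not tested. RefSeq windows on GRCh38.p14, from 250 bases before to 50 bases after the start site, were held for 5 of the 8 members, with 2 windows for SOCS3. The SOCS1 window is chr16:11256155-11256454 on the minus strand, and the capitals mark a pair of GAAA runs set 2 bases apart, an interferon regulatory factor motif. The CISH window is chr3:50611725-50612024 on the minus strand, and the capitals mark matches to TTCNNNGAA, the motif that STAT dimers recognise.
SOCS1: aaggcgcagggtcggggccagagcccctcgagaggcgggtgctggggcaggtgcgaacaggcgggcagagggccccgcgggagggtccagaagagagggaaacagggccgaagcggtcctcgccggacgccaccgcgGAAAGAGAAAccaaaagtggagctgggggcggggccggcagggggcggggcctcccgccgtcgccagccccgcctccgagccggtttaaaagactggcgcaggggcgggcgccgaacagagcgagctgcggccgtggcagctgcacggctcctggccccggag
CISH: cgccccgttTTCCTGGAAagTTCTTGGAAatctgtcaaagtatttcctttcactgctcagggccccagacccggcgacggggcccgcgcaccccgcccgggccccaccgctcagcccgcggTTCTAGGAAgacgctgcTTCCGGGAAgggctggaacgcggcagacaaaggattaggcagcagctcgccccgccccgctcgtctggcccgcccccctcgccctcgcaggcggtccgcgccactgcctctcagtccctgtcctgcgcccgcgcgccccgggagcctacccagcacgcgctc

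The CISH window held 4 separate TTCNNNGAA matches, at positions -241, -230, -129 and -112 relative to its start site, and no match with 4 bases between TTC and GAA. Both strands were searched, TTCNNNGAA reads the same on both, and the 4 matches do not overlap each other. Of 35116 promoter windows, 7.66% held at least 1 such match and 7 windows held 4 or more. The SOCS1 window held no TTCNNNGAA and 1 pair of GAAA runs, at position -113, a motif found in 3.57% of windows and searched for after the sequences had been read. The windows of SOCS3, SOCS4 and SOCS6 held neither STAT motif nor the GAAA pair, and neither SOCS3 window covers the start of its GENCODE 29 gene model. A match describes letters and is not evidence of binding, and these data do not measure binding.

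The libraries held 19035535 and 20081266 recovered gene reads in No glucose, and 96698709 and 24513840 in Ctrl. Of 15 T lineage markers 14 had a mean of at least 100 normalized counts (reads divided by a size factor for each library), with PTCRA below that. Their sums were 79716 to 81214 normalized counts in No glucose and 80765 to 82413 in Ctrl, carried mostly by CD3D, LCK and BCL11B. Within the list CD28 (log2 fold change 0.89), CD3E (0.54), GATA3 (0.46) and CD247 (0.20) were called higher. CD7 (-0.92), CD1A (-0.70) and CD3G (-0.45) were called lower. CD7 varied between libraries, with 270 and 523 normalized counts in No glucose and 756 and 666 in Ctrl. The 6 B lineage markers summed to 523 to 536 in No glucose and 894 to 908 in Ctrl, most of it CD79A and CD79B, while MS4A1 and CD22 were at most 0.343 in any library. The 6 myeloid markers summed to 33.4 to 54.7 in No glucose and 40.2 to 44.1 in Ctrl, and MPO was at 0 in every library. The 6 erythroid markers summed to 4.55 to 9.82 in No glucose and 8.03 to 13.1 in Ctrl, with HBB at 0 throughout. The 7 adherent cell markers, led by PECAM1 and EPCAM, summed to 1075 to 1207 in No glucose and 1659 to 1688 in Ctrl. COL1A1 in that list was called higher (2.16, limma adjusted p = 0.015). That call rests on only 5 and 18 reads in No glucose and 6 and 2 in Ctrl. The part of these marker differences in the results below was not tested. In bulk RNA, fewer cells of a type and less RNA per cell cannot be told apart.

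Without glucose the 2 JAK inhibitors SOCS1 and SOCS3 rose more than 3-fold, SOCS5 and SOCS7 rose by less than 1.5-fold, and CISH, the classical STAT5 target, fell. SOCS2, SOCS4 and SOCS6 did not pass the test. All 8 members passed the filter on low values (a mean of at least 1 normalized count), 4 were called higher and 1 lower, and their median log2 fold change was 0.17. A gene was called at an adjusted p under 0.05 (limma, Benjamini-Hochberg over 27486 genes). By that rule 35.1% of all genes tested were called, 14.4% higher and 20.7% lower, with a median of 0.04. Among 14588 protein-coding genes tested 52.6% were called, 16.4% higher and 36.2% lower, with a median of -0.14. The members' 5 calls of 8 lie near the protein-coding share only with both directions pooled. By direction, 4 of 8 were higher and 1 lower, beside 16.4% and 36.2%, and 8 genes are too few to judge that difference. Both No glucose libraries lay above both Ctrl libraries for 5 members and below both for 3. Over all genes tested 35.1% lay above and 31.7% below, 66.8% in sum. Over protein-coding genes tested 29.6% lay above and 47.6% below, 77.2% in sum. Scaling to library totals moved the median of all genes to 0.24 and left 6104 genes higher and 3821 lower, against 3948 and 5695 with the deposited size factors. Leaving out CTRL_7 or CTRL_8 left 2 members called higher, SOCS1 and SOCS3, and none lower. When genes with no spread among the remaining libraries were also left out, SOCS5 passed without CTRL_7, with the same log2 fold change (0.38). That call thus came from how the spread was estimated, not from a larger change.

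**Figure D1:**
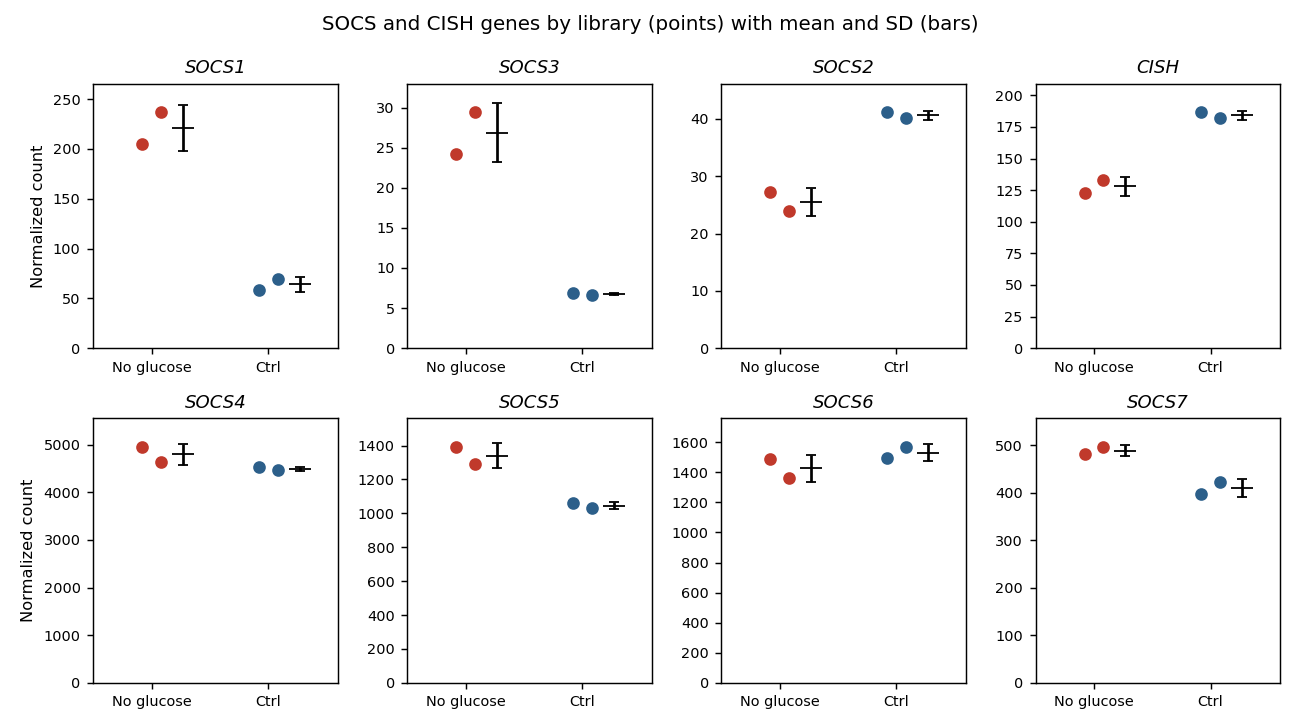
Normalized counts of the 8 members in each library, with No glucose in red on the left of each panel and Ctrl in blue on the right, and the mean and SD of each group (n = 2) as black bars. Each axis starts at 0, and the panels of SOCS1 and SOCS3 show the widest separation, with SOCS1 at 205 and 237 in No glucose and 58.4 and 69.6 in Ctrl.

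SOCS1, at chr16:11254405-11256200 on the minus strand (GENCODE 29, GRCh38), binds JAK kinases directly and blocks their active site. It had 205 and 237 normalized counts in the No glucose libraries, against 58.4 and 69.6 in the Ctrl libraries. Every No glucose library stood at nearly 3 times the higher Ctrl library or above. The group means were 221 ± 22.9 in No glucose and 64.0 ± 7.89 in Ctrl (SD, n = 2), a log2 fold change of 1.77 ± 0.16 (SE; adjusted p = 4.7e-06), or 3.42-fold. These values rest on 135 and 169 reads in No glucose and on 170 and 52 in Ctrl. The rise passed the threshold under each of the 17 alternatives, with log2 fold changes from 1.65 to 1.98. SOCS1 lies inside RMI2, a gene on the opposite strand, with no exon of either on an exon of the other. RMI2 fell, with 1436 and 1466 normalized counts in No glucose and 1979 and 1961 in Ctrl (log2 fold change -0.44 ± 0.06, SE; adjusted p = 0.00019). The kit keeps strand, but the counting strand is not given in the sources used here. Reads of the pair may thus be mixed, and this was not tested.

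SOCS3, at chr17:78356778-78360077 on the minus strand, is the inhibitor of signalling through gp130, the chain shared by the interleukin 6 family. It was a low gene, with 24.3 and 29.5 normalized counts in No glucose and 6.87 and 6.69 in Ctrl. The groups were well separated, although the values rest on only 16 and 21 reads in No glucose and 20 and 5 reads in Ctrl. The log2 fold change was 1.83 ± 0.36 (SE; adjusted p = 0.0017), with a 95% interval from 1.05 to 2.62, wider than that of SOCS1. The call held under all 17 alternatives. Its size varied with the pseudocount, at 1.43 with a pseudocount of 5, because the scale log2(normalized count + pseudocount) understates changes of low genes.

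**Figure D2:**
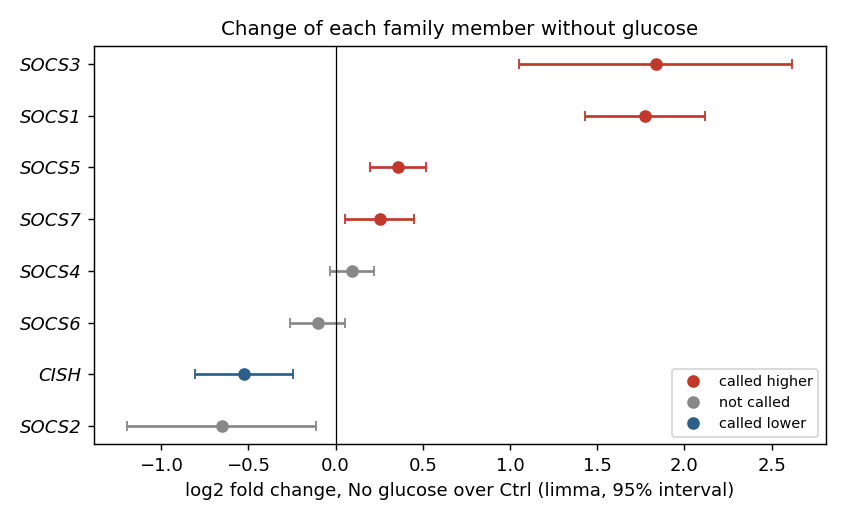
log2 fold change of each member, No glucose over Ctrl, from limma with its 95% interval (2 libraries per group). SOCS3 and SOCS1 stand apart at 1.83 and 1.77, while the other 6 members lie between -0.65 and 0.36.

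CISH, at chr3:50606490-50611831 on the minus strand, occupies receptor sites that STAT5 would use. It had 123 and 133 normalized counts in No glucose and 187 and 182 in Ctrl. Both No glucose libraries were lower than both Ctrl libraries. The means were 128 ± 7.41 in No glucose and 184 ± 3.50 in Ctrl (SD, n = 2), and the log2 fold change was -0.52 ± 0.13 (SE; adjusted p = 0.0075). This call is less firm than those of SOCS1 and SOCS3. It was lost without CTRL_7 (adjusted p = 0.124), without CTRL_8 (0.0847), with DESeq2 (0.0721) and with scaling to library totals (0.0843), where the log2 fold change was -0.31. In the authors' deposited table its adjusted p was 0.0843. CISH shares 218 exon bases with MAPKAPK3 on the opposite strand, a far more abundant gene that had 1788 and 1904 normalized counts in No glucose and 4009 and 3894 in Ctrl (log2 fold change -1.10 ± 0.06, SE; adjusted p = 1.9e-07). Without the counting strand, reads of the shared bases cannot be told apart.

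SOCS2, at chr12:93569814-93583487 on the plus strand, is the main inhibitor of growth hormone signalling. It had 27.3 and 23.9 normalized counts in No glucose and 41.2 and 40.1 in Ctrl, and the groups did not overlap. The log2 fold change of -0.65 ± 0.25 (SE) missed the threshold (adjusted p = 0.063), with a 95% interval from -1.19 to -0.11. Counts were low, at 18 and 17 reads in No glucose and 120 and 30 in Ctrl. The value passed with edgeR (adjusted p = 0.0298), with limma-voom (0.0432), at a minimum mean of 10 normalized counts (0.0458) and without ONG_9 (0.0449). Its antisense transcript SOCS2-AS1, which shares 277 exon bases with it, had 3 and 0 reads in No glucose and 15 and 4 in Ctrl.

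SOCS5 and SOCS7 rose by less. SOCS5, at chr2:46698952-46780245 on the plus strand, is known for restraining epidermal growth factor receptor and interleukin 4 signalling. It had 1393 and 1289 normalized counts in No glucose and 1060.4 and 1030.0 in Ctrl. The log2 fold change was 0.36 ± 0.07 (SE, limma adjusted p = 0.0022), or 1.28-fold. The call was lost without CTRL_7 (log2 fold change 0.38) and without CTRL_8 (0.34). Without CTRL_7 it returned only when genes of no spread were left out, with the same log2 fold change. LINC01118, which overlaps SOCS5 on the same strand over 160 exon bases, had only 6 and 5 reads in No glucose and 2 and 0 in Ctrl. SOCS7, at chr17:38352228-38405593 on the plus strand, binds insulin receptor substrate proteins. It had 481 and 497 normalized counts in No glucose and 397 and 423 in Ctrl, which do not overlap. Its log2 fold change of 0.25 ± 0.09 (SE) was at the edge of the threshold (adjusted p = 0.047). The call was lost under 10 of the 17 alternatives, among them edgeR (adjusted p = 0.0851), DESeq2 (0.165), TMM scaling (0.0921) and leaving out CTRL_7 (0.357), CTRL_8 (0.209) or ONG_10 (0.0955). The authors' deposited table has an adjusted p of 0.186 for SOCS7.

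SOCS4 and SOCS6 differed least. SOCS4, at chr14:55027230-55049488 on the plus strand, acts on the epidermal growth factor receptor. It had 4958 and 4636 normalized counts in No glucose and 4525 and 4461 in Ctrl (log2 fold change 0.09 ± 0.06, SE; adjusted p = 0.24). The 95% interval ran from -0.03 to 0.22, which does not exclude a small change. With scaling to library totals the value was 0.30 (adjusted p = 0.000915), and without ONG_10 it was 0.14 (0.0235). SOCS6, at chr18:70288901-70330200 on the plus strand, binds the stem cell factor receptor KIT. It had 1489 and 1364 normalized counts in No glucose and 1492 and 1570.4 in Ctrl (log2 fold change -0.10 ± 0.07, SE; adjusted p = 0.30), with an interval from -0.26 to 0.05. Its sign was positive, at 0.11, with scaling to library totals (adjusted p = 0.226), and it passed the threshold only without ONG_9, at -0.17 (0.0237).

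**Figure D3:**
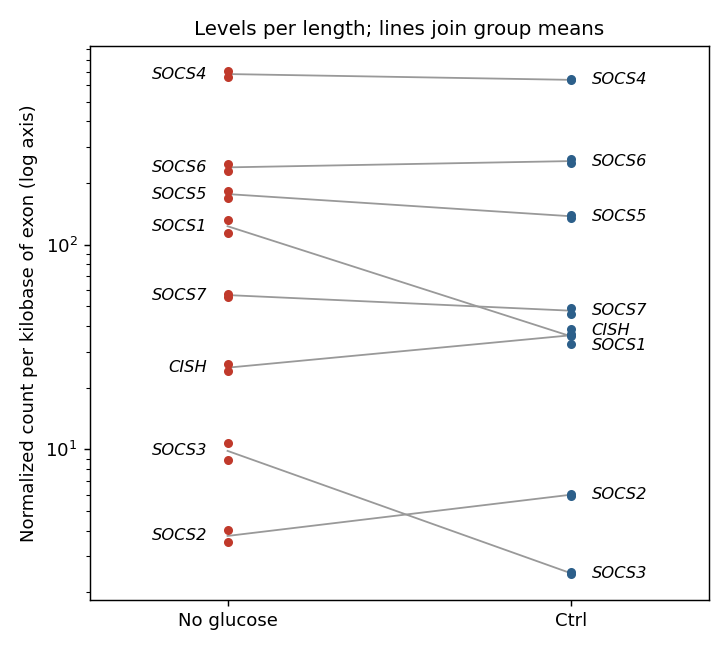
Levels of the 8 members as normalized counts per kilobase of exon (GENCODE 29, all exons merged) on a log axis, with No glucose on the left and Ctrl on the right; points are libraries and grey lines join group means. SOCS1 stands at 123 in No glucose and 35.6 in Ctrl, crossing SOCS7 and CISH, and SOCS3 crosses SOCS2.

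Levels of different members were compared per length, as normalized counts per kilobase of merged exon. In No glucose the order was SOCS4 (681 ± 32.3), SOCS6 (238 ± 14.8), SOCS5 (177 ± 9.67), SOCS1 (123 ± 12.8), SOCS7 (56.7 ± 1.32), CISH (25.0 ± 1.45), SOCS3 (9.83 ± 1.35) and SOCS2 (3.77 ± 0.359; SD, n = 2). No neighbours in that order overlapped. In Ctrl it was SOCS4 (638 ± 6.41), SOCS6 (256 ± 9.24), SOCS5 (138 ± 2.83), SOCS7 (47.5 ± 2.10), CISH (36.1 ± 0.684), SOCS1 (35.6 ± 4.39), SOCS2 (6.0 ± 0.114) and SOCS3 (2.48 ± 0.0470). There CISH and SOCS1 overlapped, and no other neighbours did. SOCS4, SOCS6 and SOCS5 thus held the top of the order in both groups, SOCS1 stood above SOCS7 and CISH in No glucose only, and SOCS3 and SOCS2 changed places. Merged exons only approximate the length of the transcripts present.

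Among 10637 protein-coding genes with a symbol and a mean of at least 50 normalized counts, the 4 whose log2 profiles over the 4 libraries, each centred on its own mean, lay nearest to that of SOCS1 were EGR1, ZNF610, KDM6B and ATP8B1. Their Euclidean distances ran from 0.113 for EGR1, an immediate early transcription factor, to 0.189 for ATP8B1. EGR1 had 337 and 391 normalized counts in No glucose and 105 and 112 in Ctrl, a log2 fold change of 1.73 ± 0.12 (SE; adjusted p = 1.1e-06). With 4 libraries such likeness says little beyond a rise of similar size.

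Among the kinases and STAT factors that the family regulates, STAT4 rose most. STAT4, which carries the interleukin 12 signal in T cells, had 53.1 and 43.5 normalized counts in No glucose and 6.87 and 5.35 in Ctrl, a log2 fold change of 2.79 ± 0.33 (SE; adjusted p = 4.3e-05). The No glucose libraries stood far above both Ctrl libraries, and the call held under all 17 alternatives. These values rest on only 35 and 31 reads in No glucose and 20 and 4 in Ctrl. STAT5A had 3257 and 3540.1 in No glucose and 4768 and 4782 in Ctrl (-0.49 ± 0.06, log2, SE; adjusted p = 5.7e-05). Its call held under all 17 alternatives. STAT5B had higher counts, at 7962 and 8161 in No glucose and 8290 and 8006 in Ctrl, which overlap. Any part of STAT5A or STAT5B in the fall of CISH was not tested. TYK2, a kinase of interferon receptors, changed by -0.41 ± 0.13, while STAT3 rose by 0.29 ± 0.05 and JAK1 by 0.23 ± 0.05 (log2, SE). TYK2 had 1559 and 2203 normalized counts in No glucose and 2584 and 2356 in Ctrl. Its log2 fold change was -0.16 without ONG_9 and -0.66 without ONG_10. STAT3 and JAK1 lost their calls without CTRL_7 or without CTRL_8, and TYK2 lost its call without CTRL_7, with DESeq2 and with scaling to library totals. The log2 fold changes of JAK2 (-0.08), JAK3 (0.23), STAT2 (0.07), STAT5B (-0.02) and STAT6 (-0.03) did not pass. With scaling to library totals JAK3 (0.44), STAT2 (0.28), STAT5B (0.20) and STAT6 (0.18) were all called higher. JAK3 passed under 7 of the 17 alternatives, among them that without ONG_9, at 0.32 (adjusted p = 0.00113).

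**Figure D4:**
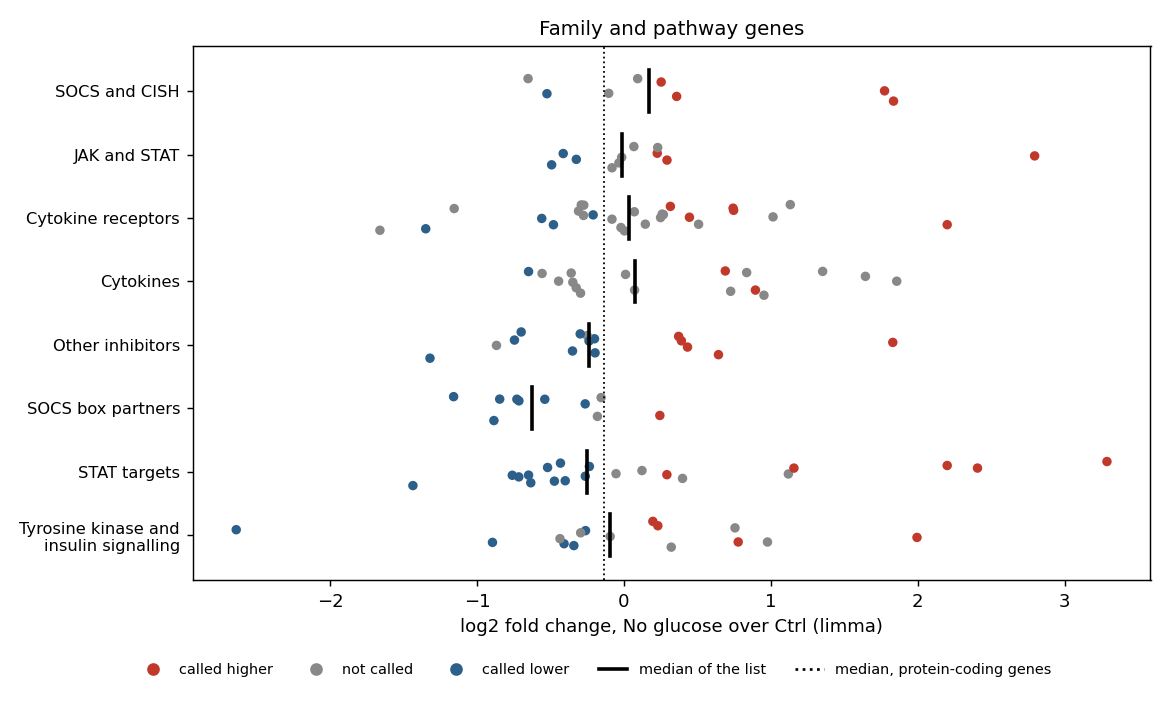
log2 fold changes, No glucose over Ctrl, of the members and of the tested genes of 7 pathway lists; red, grey and blue points were called higher, not called and called lower, black bars are list medians and the dotted line is the median of protein-coding genes (-0.14). The SOCS box partners lie furthest to the left, with a median of -0.63.

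The lists of genes around the family hold 139 genes, of which 112 were tested; 24 were called higher and 38 lower. These shares are near the 16.4% and 36.2% of protein-coding genes tested, so the count says nothing particular of these genes. Scaling to library totals gave 32 higher and 19 lower. Leaving out CTRL_7 gave 15 and 15, or 20 and 27 when genes with no spread among the remaining libraries were also left out. Leaving out CTRL_8 gave 13 and 22, or 15 and 27 in that way. Of 10 genes listed as ubiquitin ligase partners of the SOCS box, 7 fell and 1 rose, beside 36.2% and 16.4% of protein-coding genes tested. The median log2 fold change was -0.63, against -0.14 for protein-coding genes. ELOB, elongin B, had 983 and 1593 normalized counts in No glucose and 3066 and 2545 in Ctrl (-1.16 ± 0.17, log2, SE; adjusted p = 0.00026). NEDD8, which activates cullins, changed by -0.88 ± 0.07 and its conjugating enzyme UBE2M by -0.85 ± 0.09, while the RING subunit RNF7 rose by 0.24 ± 0.07 (log2, SE). RNF7 lost its call without CTRL_7, CTRL_8 or ONG_10. In the same list CUL5 (-0.16 ± 0.06, adjusted p = 0.079) and UBE2F (-0.18 ± 0.10, adjusted p = 0.21) were not called. The other listed cullin, CUL2 (-0.26 ± 0.06), and RBX1 (-0.71 ± 0.06) were called lower (all log2, SE, limma). The list spans both cullins, so its counts and median are not those of a ligase built on CUL5 alone.

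Of 15 genes listed as other inhibitors of the pathway 8 fell and 5 rose, with a median log2 fold change of -0.24. Over protein-coding genes tested 36.2% were lower and 16.4% higher, with a median of -0.14. USP18, a brake on the type I interferon receptor, had 19.7 and 29.5 normalized counts in No glucose and 71.1 and 53.5 in Ctrl (-1.32 ± 0.27, log2, SE; adjusted p = 0.0024), a call lost without CTRL_7 (0.0862). The phosphatases DUSP2 (-0.74 ± 0.13), PTPN11 (-0.70 ± 0.05), PTPN2 (-0.24 ± 0.06) and PTPN1 (-0.20 ± 0.06) also fell. The phosphatases PTPRC (0.64 ± 0.05) and PTPN6 (0.37 ± 0.06) rose, and PTPRJ (-0.87 ± 0.45) was not called (log2, SE). CBLB, a ubiquitin ligase that restrains T cell activation, had 2233 and 2117 normalized counts in No glucose and 610 and 613 in Ctrl, a rise of 1.83 ± 0.07 on the log2 scale (SE; adjusted p = 2e-08), close in size to that of SOCS1.

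Of 36 receptor chains 26 were tested, 5 rose and 4 fell (median 0.04). That is close to the 35.1% called over all genes tested and below the 52.6% over protein-coding genes. IL21R (0.75 ± 0.14), OSMR (0.74 ± 0.21) and the interferon gamma receptor chain IFNGR1 (0.45 ± 0.07) rose, and IL15RA fell (-1.35 ± 0.20; log2 fold changes, SE). OSMR lost its call under 6 of the 17 alternatives, among them those without CTRL_7, CTRL_8 or ONG_9. Of 28 cytokines 17 were tested, 2 rose and 1 fell (median 0.07), also a smaller share than either background. IL23A had 241 and 226 normalized counts in No glucose and 143 and 110 in Ctrl (0.89 ± 0.15, log2, SE; adjusted p = 0.00052). TSLP rose by 0.69 ± 0.21 and OSM, a STAT5 target, changed by -0.65 ± 0.20, calls lost under 5 and 7 of the 17 alternatives. Leaving out CTRL_7 or CTRL_8 ended both, leaving out ONG_10 ended that of TSLP, and leaving out ONG_9 ended that of OSM, at -0.34. IL2, IFNG and CSF2 were listed at 0 in all 4 libraries.

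Of 20 STAT target genes 11 fell and 5 rose, with a median log2 fold change of -0.25, beside 36.2% lower, 16.4% higher and a median of -0.14 over protein-coding genes tested. MYC, a growth-promoting transcription factor, had 3692 and 3751 normalized counts in No glucose and 10227 and 9909 in Ctrl (-1.44 ± 0.05, log2, SE; adjusted p = 1.6e-08). The kinase genes PIM2 (-0.76 ± 0.17) and PIM3 (-0.72 ± 0.10), known as STAT5 targets, fell as well. IL2RA, another STAT5 target in the list, was called higher (2.20 ± 0.54, log2, SE). That call rests on 8 and 13 reads in No glucose and 12 and 1 in Ctrl. PIM2 lost its call without CTRL_7 or with library totals. FOS had 506 and 550.0 normalized counts in No glucose and 58.7 and 48.2 in Ctrl, a rise of 3.29 ± 0.14 (log2, SE; adjusted p = 3.6e-08). Of 21 genes of receptor tyrosine kinase and insulin signalling 15 were tested, 4 rose and 5 fell (median -0.09), near the 52.6% called over protein-coding genes. GAB2, an adaptor, rose by 1.99 ± 0.07, while IRS1 (-0.89 ± 0.14) and INSR (-0.41 ± 0.08) fell (log2, SE), INSR losing its call without CTRL_7, without CTRL_8 or with library totals. PDGFRB was called lower on 6 and 0 reads in No glucose and 59 and 13 in Ctrl, and that call was lost under 6 of the 17 alternatives, among them those without CTRL_7, CTRL_8 or ONG_10.

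**Figure D5:**
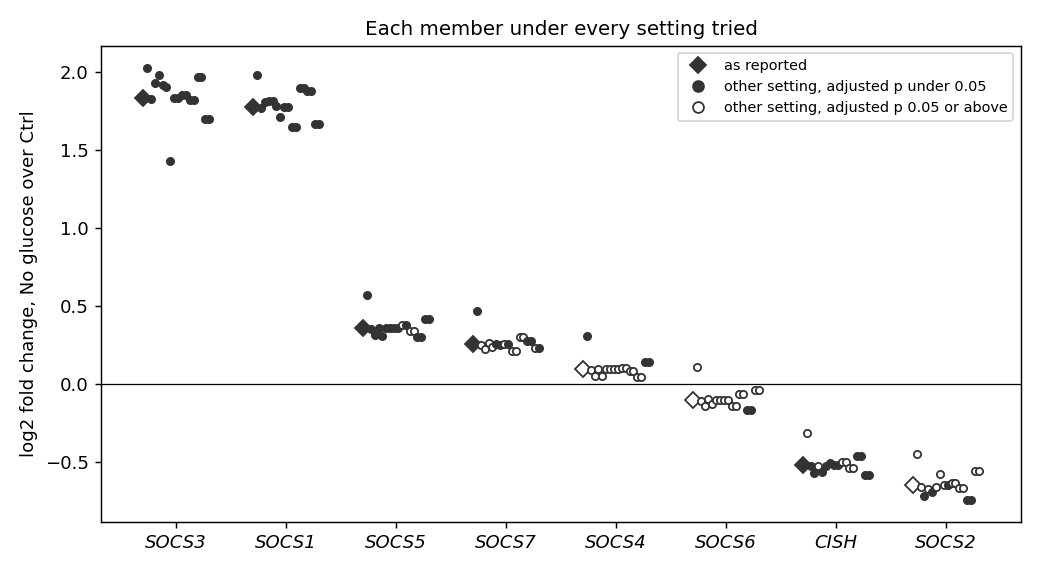
log2 fold change of each member under every setting; diamonds are the values as reported, circles the 17 alternatives, filled where the adjusted p was under 0.05. All symbols of SOCS3 and SOCS1 are filled and lie between 1.43 and 2.03, whereas those of SOCS5, SOCS7, SOCS4, SOCS6, CISH and SOCS2 mix filled and open.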

How the data were processed

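Per the submitters' processing notes, the tools were STAR 2.6.0c, RSEM 1.3.0 and DESeq2 1.18.1 on hg38; the annotation release and counting strand are not given in the sources used here. The 4 signal columns are normalized counts, gene reads divided by 1 size factor per library by the authors; division by the smallest value above 0 in each library returned values within 0.01 of whole reads for 100% of values, though these may be expected counts that were rounded upstream. The log2 fold changes and standard errors, the score (test statistic) and the p-values of the authors' comparison were deposited too; only the deposited adjusted p of named members is quoted. Columns name the group, not the replicate; those beginning ONG were taken as No glucose.

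Genes with a mean of at least 1 normalized count were tested with limma 3.58.1 (trend, R 4.3.3); values entered as log2(normalized count + 1). Tests were two-sided at a threshold of 0.05 after adjustment by Benjamini and Hochberg's method over 27486 genes. Alternatives on recovered reads used edgeR 4.0.16, DESeq2 1.42.0 and limma-voom; others changed scaling, pseudocount, filter or left out 1 library. The fit was also run on simulated libraries given the same spread in both groups, so that run does not cover groups of unequal spread. Libraries of a pair differed by more than sampling noise (chi-square per degree of freedom 5.72 in No glucose and 1.81 in Ctrl). Members, lists and tests were chosen with earlier results of these data known. Named genes were all members, JAKs and STATs, the genes nearest in profile to SOCS1, and from each other list up to 3 called genes in the commoner direction and 1 in the other, by size of change at a mean of at least 10 normalized counts. Genes listed at 0, and CUL2, CUL5, UBE2F, RBX1, IL2RA, PTPN1, PTPN2, PTPN6, PTPRC and PTPRJ, were named after their values were seen. Some genes that this rule names are not reported here. Protein sequences were not used here.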

Additional observations from a re-analysis of the deposited data

How the results depend on the processing

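SOCS1 and SOCS3 kept their direction and call under all 17 alternatives. The calls of SOCS5, SOCS7 and CISH were lost under 3, 10 and 6. Each leave-one-out fit is counted in 2 forms among the 17, so these are not 17 separate checks. The number of members called higher was 4 as reported and 2 to 5 when 1 library was left out; members called lower numbered 1 as reported, 0 with library totals or DESeq2, 2 with edgeR, limma-voom or a minimum mean of 10, and 0 to 3 when 1 library was left out. Genes called higher, all genes tested, numbered 6104 with library totals, 2436 with DESeq2, and 2027 to 4949 when 1 library was left out; genes called lower, all genes tested, 3318 to 6829 when 1 library was left out. Pathway genes called higher numbered 13 to 29, and pathway genes called lower 15 to 45, when 1 library was left out, and 19 were lower with library totals. The low ends came from leaving out CTRL_7 or CTRL_8, where the lone Ctrl library is assumed to vary like the No glucose pair. Signs turned for SOCS6 (0.11), JAK2 (0.13), STAT5B (0.20) and STAT6 (0.18) with library totals. When 1 library was left out JAK2 ran from -0.183 to 0.0217 and STAT5B from -0.0405 to 0.0099, positive without ONG_10 for JAK2 and without CTRL_7 or ONG_9 for STAT5B; the cause was not tested. Of 34 pathway genes named by rule 17 kept their sign and call throughout. Leaving out genes with no spread among the remaining libraries was an alternative chosen after seeing the data. Its log2 fold changes equal those of the planned leave-one-out fits, so calls it adds come from the estimate of spread alone. No paired analysis was possible because the columns carry no replicate numbers. Depth limits SOCS3 and SOCS2 most, at 5 to 120 reads per library.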

Other observations

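The STAT target list held other rises besides FOS, named here after their values were seen. BCL6, a repressor that competes with STAT5 at shared sites in lymphocytes, had 153 and 146 normalized counts in No glucose and 24.4 and 30.8 in Ctrl, a log2 fold change of 2.41 ± 0.19 (SE, limma; adjusted p = 2.4e-06). IL2RA, the high-affinity interleukin 2 receptor chain and a STAT5 target, had 12.1 and 18.2 normalized counts in No glucose and 4.12 and 1.34 in Ctrl (2.20 ± 0.54; adjusted p = 0.0079), on 8 and 13 reads in No glucose and 12 and 1 in Ctrl. IL7R, the interleukin 7 receptor chain of T lineage cells, had 149 and 157 in No glucose and 134 and 158 in Ctrl, which overlap (0.07 ± 0.14; adjusted p = 0.74).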
